A study of Mus musculus with 18 samples.

Results

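The genes described here are 42 genes of the cell cycle and of DNA replication. They were chosen by name for their textbook function, with earlier results of these data known. Of these, 18 act in S phase, 21 act in mitosis and 3 are transcription factors that switch such genes on. The array table holds 35512 probe sets, of which 21789 carry a single gene symbol and stand for 19938 genes. A probe set with its symbol alone was found for 41 of the 42 members, and *Ccnb1*, which encodes cyclin B1, has none in the probe annotation used here. The arrays were hybridised with RNA of mouse J1 ESCs of strain 129Sv/Jae. They were wild type (wt), *Dnmt1*-/- (without the maintenance DNA methyltransferase) or TKO, which is dnmt1-/-, dnmt3a-/-, dnmt3b-/- and so lacks the de novo enzymes too. Each line was sampled as undifferentiated ESCs at day 0 and as EBs, the aggregates in which ESCs differentiate without direction, at day 4 and day 16. Every one of the 9 groups had 2 arrays, replicates 1 and 2, so 18 arrays were compared, and each genotype rests on an ESC line rather than on several clones. The strain was the same in all groups and all EBs were grown from hanging drops, and the same wt arrays served both mutants.

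A cell copies its DNA in S phase and divides it in mitosis. Origins are prepared in G1 when the origin recognition complex, Cdc6 and Cdt1 load the Mcm helicase, which Cdc45, the GINS complex and Mcm10 then set in motion. E2F factors and cyclin E with Cdk2 drive this step, and B-Myb (*Mybl2*) and Foxm1 later switch on the genes of mitosis, whose kinases, checkpoint proteins and motors separate the chromosomes. Mouse ESCs are known for fast division with a short G1 phase and for high cyclin E and B-Myb, whereas cells that differentiate lengthen G1 and may leave the cycle.

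Signals are log2 values from RMA, so a difference of 1 is 2-fold. They are relative to the other transcripts of an array. A member was called higher or lower where its log2 fold change was at least 1 in size and its false discovery rate, over all probe sets of the comparison, was below 0.05. A count at an unadjusted limma p under 0.05 is no call, and the share of all genes is not given beside it. Such a count therefore does not show whether the members differ from genes in general. The value after ± is the standard error (SE) of the fold change in the limma fit, and every adjusted p is of that fit (n = 2 arrays per group). The samples are whole cultures, in which fewer dividing cells and less RNA per dividing cell cannot be told apart.

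The labels were checked on the mutated genes and on markers. *Dnmt1* itself read 9.16 to 9.77 across the 6 wt arrays, 8.45 to 8.86 on the *Dnmt1*-/- arrays and 8.40 to 8.75 on the TKO arrays. *Dnmt3a* ranged from 6.45 to 7.65 in TKO and from 7.96 to 9.45 in the other lines, while the *Dnmt3b* ranges overlapped. The mean of 8 ESC markers was 10.49 to 10.87 on the arrays of day 0 in all 3 lines, and 7 of the 8 fell in wt by day 4. One pair of arrays stood apart for the members. In day 16 wt EBs 40 of the 41 members were lower on replicate 2 than on replicate 1, by a median of -0.40 on the log2 scale, against medians of -0.18 to -0.01 in the other groups. The mean of 4 erythroid markers also differed between those arrays, at 8.04 and 4.92, the widest gap of any group, though not the only one. This mean was 6.64 and 5.52 in wt, 6.43 and 8.49 in *Dnmt1*-/- and 5.18 and 6.78 in TKO EBs of day 4. At day 16 it was 7.16 and 5.71 in TKO and, closer together, 8.46 and 8.24 in *Dnmt1*-/-. Several counts that rest on the wt arrays of day 16 are therefore also given without one of them.

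Most of the cell cycle genes fell in wt between ESCs and day 16 EBs, and most of the median change came after day 4. Between day 0 and day 16, 23 of 41 members fell and none rose, and the largest falls were those of *Mybl2*, *Ccne1*, *Orc1* and *Mcm10*. All 41 log2 fold changes were below 0, with a median of -1.07 against -0.06 over all 19938 genes. Of all genes, 5.67% were called lower. By function, 12 of 18 S phase genes fell, with a median of -1.21, as did 10 of 20 mitotic genes, with a median of -1.06. The false discovery rate alone, without the 2-fold line, was passed in the downward direction by 33 members and by 14.9% of all genes. Leaving out wt day 16 replicate 2 left 16 members called, and leaving out replicate 1 gave 30.

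**Figure D1:**
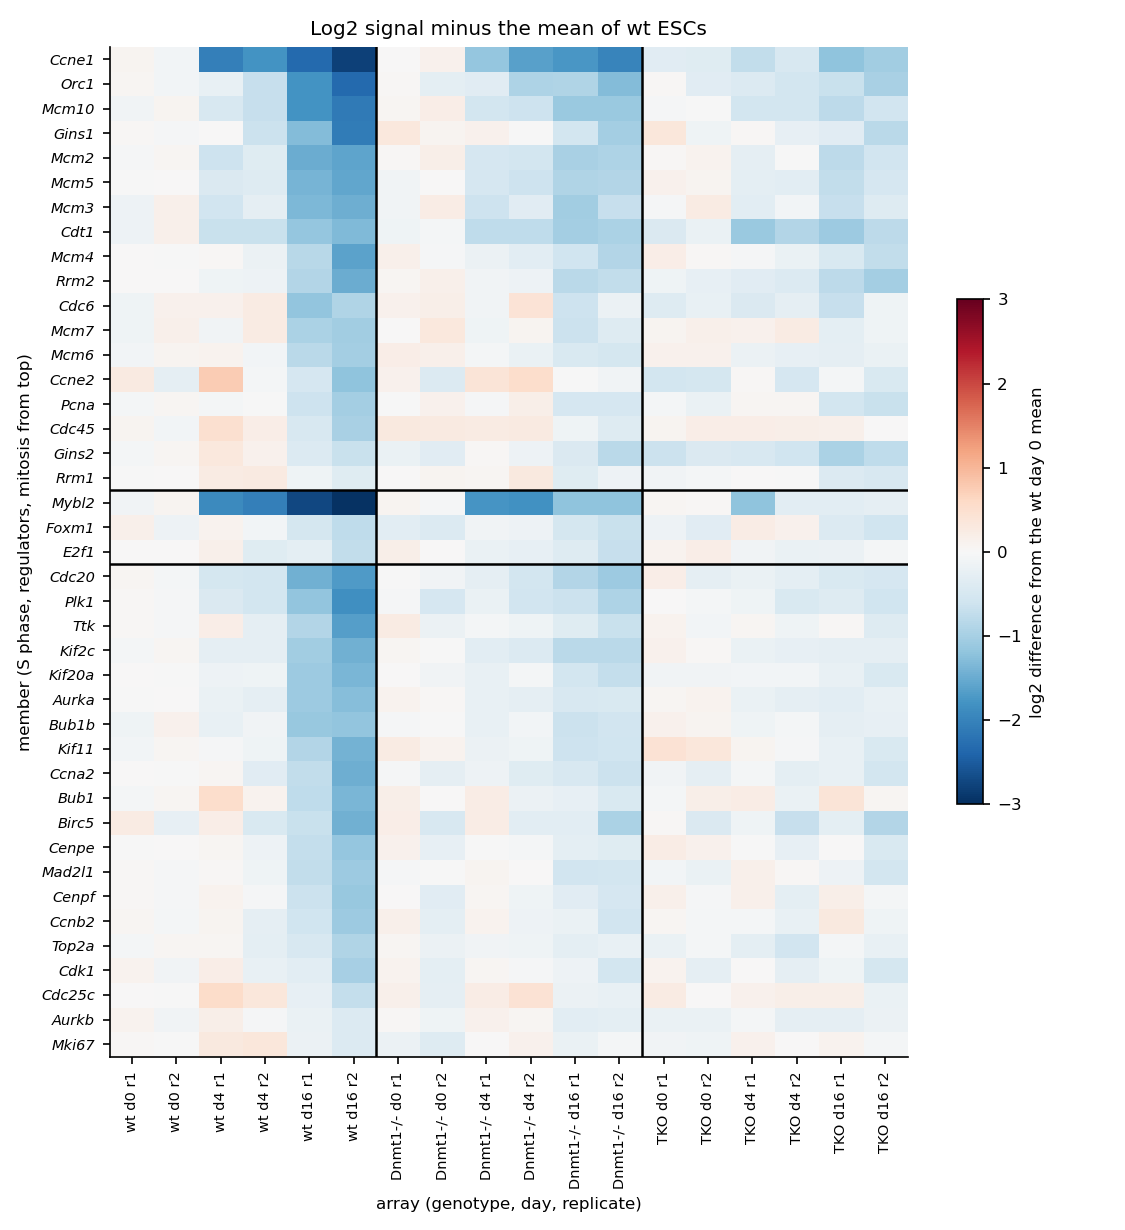
Log2 signal of each of 41 members (rows) on each of 18 arrays (columns), minus the mean of the 2 wt ESC arrays. Rows run from S phase genes through the 3 regulators to mitotic genes, ordered by the wt change within each, and blue marks lower signal. The blue block lies on the 2 wt arrays of day 16, is deeper on replicate 2, and is paler in *Dnmt1*-/- and palest in TKO.

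Few members had moved by day 4. Only *Mybl2* and *Ccne1* were called lower in wt EBs of day 4, 2 of 41 members against 2.77% of all genes, and the median change was -0.10. In *Dnmt1*-/- the same 2 members were called, against 2.72% of genes. In TKO no member was called, against 1.16% of genes, although limma gave an unadjusted p under 0.05 to 1 member upward and 8 downward. The falls called at day 4 were those of a cyclin and a regulator, and the mean of every other member was within 2-fold of its ESC level in all 3 genotypes.

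Between day 4 and day 16, 17 of 41 members fell in wt EBs, against 2.18% of all genes, and every member had a change below 0. The median was -0.97. Of those called, 11 were S phase genes and 6 mitotic. This count depends on the wt arrays of day 16: it was 28 without replicate 1 and 6 without replicate 2, and 5 when only the 4 arrays compared were fitted. It was 9 with fold changes centred on their median and 10 after a further quantile normalization, since many of these changes lay close to the 2-fold line. In *Dnmt1*-/- EBs no member was called over the same interval, against 0.421% of genes, with a median of -0.44 and an unadjusted limma p under 0.05 for 23 members downward. In TKO EBs no member was called either, against 0.742% of genes, with a median of -0.18 and 10 members at an unadjusted p under 0.05 downward.

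**Figure D2:**
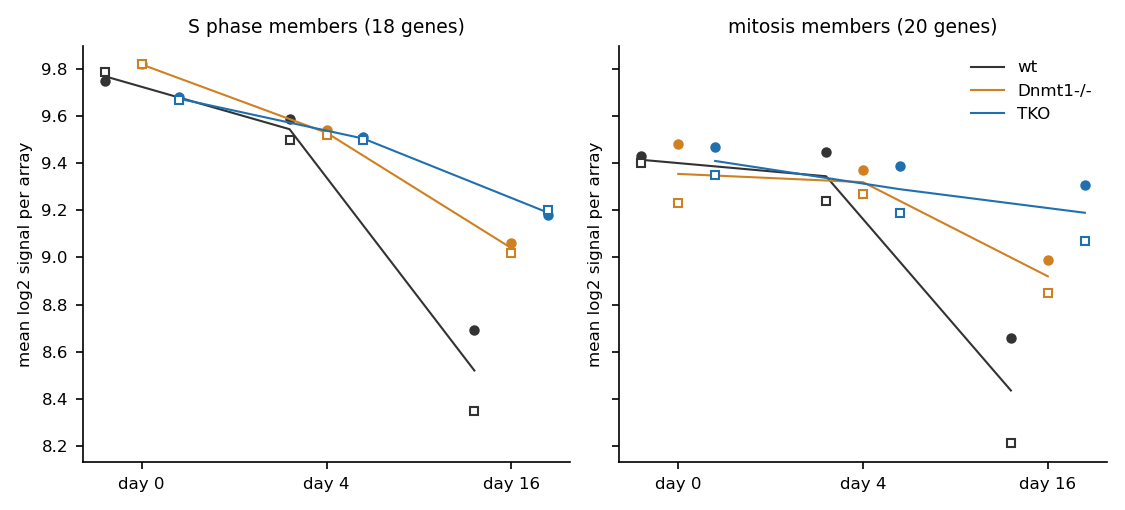
Mean log2 signal over the 18 S phase members (left) and the 20 mitotic members (right) on each array, by day (evenly spaced, not to scale). Filled circles are replicate 1, open squares replicate 2, and lines join the means of the 2 arrays. At day 16 the wt arrays lie at 8.69 and 8.35 for S phase genes, the *Dnmt1*-/- arrays at 9.06 and 9.02 and the TKO arrays at 9.18 and 9.20.

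Over the whole course the members had smaller median changes in the mutants than in wt. From day 0 to day 16, 4 of 41 members fell in *Dnmt1*-/- (*Mcm2*, *Mcm10*, *Ccne1* and *Mybl2*), against 2.69% of genes, and the median was -0.56. At the false discovery rate alone 23 members were lower, against 9.99% of genes. In TKO none was called, against 0.762% of genes, with a median of -0.35, and 7 members were lower at the false discovery rate alone, against 2.74% of genes. By function the median TKO change was -0.63 over the S phase genes and -0.22 over the mitotic genes. The corresponding values in *Dnmt1*-/- were -0.83 and -0.46. A call in one genotype and not in another is no test of a difference, and the differences themselves follow.

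Before differentiation no member was called in *Dnmt1*-/- or TKO ESCs against wt, against 0.145% and 0.196% of genes called higher. limma gave an unadjusted p under 0.05 to 1 member in *Dnmt1*-/-, downward, and to 1 upward and 1 downward in TKO. At day 4 no member was called in *Dnmt1*-/- EBs, against 0.416% of genes, with 1 at an unadjusted p under 0.05. In TKO EBs of day 4 *Ccne1* and *Mybl2* were higher than in wt, 2 of 41 members against 2.47% of genes. *Mybl2* lost this call without TKO day 4 replicate 2.

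At day 16, 39 of 41 members had a higher mean in TKO than in wt, and 37 had one in *Dnmt1*-/-. The share of all genes with a higher mean is not given here. In TKO EBs 9 of 41 were called higher and none lower, against 2.69% of genes, with a median of 0.78 against 0.03 over all genes. These 9 were *Orc1*, *Mcm10*, *Gins1* and *Ccne1* of S phase, the regulator *Mybl2*, and *Plk1*, *Bub1*, *Ttk* and *Cdc20* of mitosis. Without the 2-fold line 24 members passed, against 7.78% of genes. The count was 18 without wt day 16 replicate 1, 3 without wt day 16 replicate 2, and 4 when only the 4 arrays compared were fitted. In *Dnmt1*-/- EBs only *Mybl2* was called, 1 of 41 against 1.49% of genes, with a median of 0.48, and 7 members passed the false discovery rate alone, against 3.21% of genes. Without wt day 16 replicate 1 the *Dnmt1*-/- count was 7.

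Both TKO arrays lay above both wt arrays of day 16 for 33 of 41 members, against 24.5% of all genes. The same held in *Dnmt1*-/- for 32 members, against 19.8% of genes. For 33 members the 3 means of day 16 ran in the order wt, *Dnmt1*-/-, TKO from low to high. This order was not counted over all genes, so how common it is on these arrays is not known. In a direct comparison of the mutants at day 16, added after the values had been seen, no member was called in TKO against *Dnmt1*-/-, against 0.166% of genes. The median was 0.26, and 10 members had an unadjusted limma p under 0.05, all upward.

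The change from day 0 to day 16 differed between TKO and wt for 5 members, *Mybl2*, *Ccne1*, *Mcm10*, *Cdc20* and *Kif20a*, each with the smaller change in TKO. The median difference over 41 members was 0.76, and 1.88% of genes were called in this direction. With each array left out in turn the count ranged from 3 to 12, the highest without wt day 16 replicate 1. It was 3 without any of wt day 0 replicate 1, wt day 16 replicate 2, TKO day 0 replicate 2 or TKO day 16 replicate 1. Between *Dnmt1*-/- and wt the change differed for *Mybl2* only, 1 of 41 against 0.582% of genes, with a median difference of 0.49. That call was lost in 7 of 8 omissions of a single array, all but that of wt day 16 replicate 1. Where the replicate number was fitted as a block, the counts were 11 for TKO and 2 for *Dnmt1*-/-. The labels do not say whether equal numbers share an experiment.

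**Figure D3:**
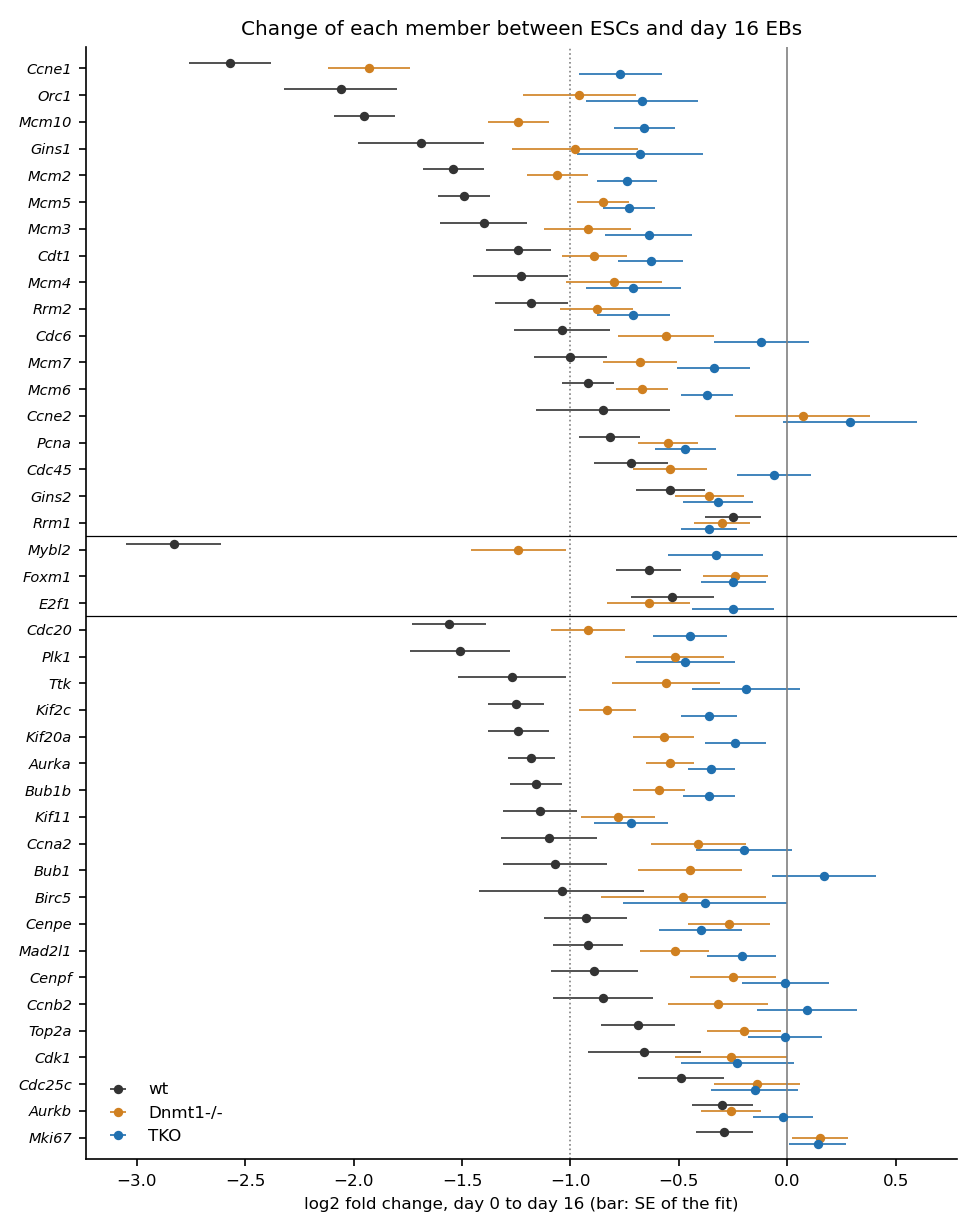
Log2 fold change of each of 41 members from ESCs to day 16 EBs in wt (black), *Dnmt1*-/- (orange) and TKO (blue), with the SE of the fit as bars. Members are grouped as S phase, regulators and mitosis from the top, and the dotted line marks a 2-fold fall. The wt points reach furthest left, down to -2.83 for *Mybl2*, and the TKO points lie between -0.77 and 0.29.

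The promoters of the members that fell furthest in wt are shown to let the regulatory sequence be read beside the values. RefSeq windows of 300 bases, from 250 before to 50 after the start (GRCm38.p6), were matched by symbol for 33 of 42 members (34 windows, as *Mcm7* has a pair). *Mcm4*, *Gins1*, *Gins2*, *Ccne2*, *Foxm1*, *Ccna2*, *Cdc25c*, *Aurkb* and *Kif20a* had no window. Searched on both strands were an E2F site (TTTNNCGC), the cell cycle gene homology region or CHR (TTTGAA) and the CCAAT box (CCAAT). None of these motifs holds another, though the E2F and CHR letters both begin with TTT. The E2F letters stood in 7 of 15 S phase windows and 1 of 17 mitotic windows, against 5.17% of all 32851 windows. The CHR letters stood in 12 of 17 mitotic windows and 2 of 15 S phase windows, against 17.9% of all windows. CCAAT stood in 12 of 15 S phase and 14 of 17 mitotic windows, against 37.4% of all. The windows of *Mybl2* and *E2f1* held none of the 3, nor did that of *Ccne1*. A match is a description of the letters and was not tested for binding. For the 3 S phase and 3 mitotic members with the largest wt falls among those with a match, 210 bases from 180 before to 30 after the start follow on the gene's strand, with the motifs in capitals on either strand.
Orc1, chr4:108579274-108579483 (+ strand): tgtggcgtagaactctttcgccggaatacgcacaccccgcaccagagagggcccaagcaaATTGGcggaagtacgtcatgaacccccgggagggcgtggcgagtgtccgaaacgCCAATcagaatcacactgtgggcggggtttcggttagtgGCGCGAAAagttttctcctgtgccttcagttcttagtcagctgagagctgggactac
Mcm10, chr2:5012762-5012971 (- strand): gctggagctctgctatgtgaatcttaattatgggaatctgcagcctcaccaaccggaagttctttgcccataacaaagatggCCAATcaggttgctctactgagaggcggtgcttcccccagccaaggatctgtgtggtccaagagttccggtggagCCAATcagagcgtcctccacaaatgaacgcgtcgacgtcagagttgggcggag
Mcm2, chr6:88898751-88898960 (- strand): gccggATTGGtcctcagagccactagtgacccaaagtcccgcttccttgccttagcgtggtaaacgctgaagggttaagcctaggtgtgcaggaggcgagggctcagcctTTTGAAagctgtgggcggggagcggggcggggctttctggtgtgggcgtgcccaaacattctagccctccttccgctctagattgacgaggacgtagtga
Cdc20, chr4:118437314-118437523 (- strand): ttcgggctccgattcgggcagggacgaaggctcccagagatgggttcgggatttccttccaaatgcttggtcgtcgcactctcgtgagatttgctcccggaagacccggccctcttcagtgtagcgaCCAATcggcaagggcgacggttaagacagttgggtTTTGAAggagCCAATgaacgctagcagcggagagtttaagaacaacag
Plk1, chr7:122159255-122159464 (+ strand): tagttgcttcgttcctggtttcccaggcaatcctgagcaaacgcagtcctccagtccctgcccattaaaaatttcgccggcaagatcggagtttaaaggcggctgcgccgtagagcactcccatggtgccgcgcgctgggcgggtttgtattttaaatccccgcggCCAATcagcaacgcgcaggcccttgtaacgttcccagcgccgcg
Ttk, chr9:83834509-83834718 (+ strand): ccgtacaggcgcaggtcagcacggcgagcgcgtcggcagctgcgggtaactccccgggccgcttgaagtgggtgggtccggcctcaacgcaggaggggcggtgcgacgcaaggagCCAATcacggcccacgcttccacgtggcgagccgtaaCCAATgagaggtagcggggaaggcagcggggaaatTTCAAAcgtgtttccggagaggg
Among these, the capitals GCGCGAAA of *Orc1* are the E2F letters on the reverse strand. The capitals ATTGG are CCAAT on the reverse strand, and *Mcm10* has CCAAT alone. *Mcm2* and *Cdc20* carry TTTGAA, *Ttk* carries it on the reverse strand as TTCAAA, and in *Plk1* it begins at base 31 after the start, just past the stretch shown.

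Of the 9 genes that load the helicase onto origins, 8 fell in wt between day 0 and day 16, with *Mcm6* at -0.92 ± 0.12 (adjusted p = 0.00016) the exception to the 2-fold line. *Orc1*, the large subunit of the origin recognition complex, read 8.12 and 7.97 in ESCs, 7.83 and 7.35 at day 4 and 6.26 and 5.72 at day 16 in wt. It read 8.09 and 7.75 in ESCs, 7.72 and 7.13 at day 4 and 7.15 and 6.76 at day 16 in *Dnmt1*-/-. In TKO it read 8.09 and 7.71 in ESCs, 7.65 and 7.49 at day 4 and 7.39 and 7.07 at day 16. The wt arrays of day 16 lay below every other array, and neither mutant overlapped with wt at that day. The wt change was -2.06 ± 0.26 (adjusted p = 0.0001), that of *Dnmt1*-/- -0.96 ± 0.26 (adjusted p = 0.024) and that of TKO -0.67 ± 0.26 (adjusted p = 0.19). At day 16 the TKO signal was higher than wt by 1.24 ± 0.26 (adjusted p = 0.0068), and this call was lost without wt day 16 replicate 2 or TKO day 16 replicate 1. The difference of the TKO and wt changes was 1.39 ± 0.37 (adjusted p = 0.051).

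The Mcm subunits themselves form the ring of the helicase. *Mcm2* read 10.77 and 10.86 in ESCs, 10.19 and 10.45 at day 4 and 9.31 and 9.23 at day 16 in wt. In *Dnmt1*-/- it read 10.84 and 10.98 in ESCs, 10.31 and 10.27 at day 4 and 9.83 and 9.88 at day 16, and in TKO it read 10.85 and 10.91 in ESCs, 10.55 and 10.79 at day 4 and 10.03 and 10.24 at day 16. The replicate arrays of *Mcm2* were close together, and at day 16 the 3 genotypes did not overlap. Its change from day 0 to day 16 was -1.54 ± 0.14 (adjusted p = 6.8e-06) in wt, -1.06 ± 0.14 (adjusted p = 0.00024) in *Dnmt1*-/- (a call lost without *Dnmt1*-/- day 0 replicate 2) and -0.74 ± 0.14 (adjusted p = 0.0082) in TKO. *Mcm5* read 10.57 and 10.61 in ESCs, 10.15 and 10.21 at day 4 and 9.19 and 9.02 at day 16 in wt. For *Mcm5* the *Dnmt1*-/- arrays read 10.49 and 10.60 in ESCs, 10.08 and 9.98 at day 4 and 9.68 and 9.71 at day 16, and the TKO arrays read 10.71 and 10.67 in ESCs, 10.30 and 10.28 at day 4 and 9.85 and 10.08 at day 16. Again the pairs of day 16 were apart, in the order wt, *Dnmt1*-/-, TKO. The *Mcm5* change was -1.49 ± 0.12 (adjusted p = 3.6e-06) in wt and -0.73 ± 0.12 (adjusted p = 0.0043) in TKO, and the difference of these, 0.76 ± 0.17 (adjusted p = 0.022), passed the false discovery rate without reaching 2-fold. The wt changes of *Mcm3*, *Mcm4* and *Mcm7* were -1.40, -1.23 and -1.0. The loading factors *Cdt1* and *Cdc6* changed by -1.24 and -1.04, and *Cdt1* was the only loader past the false discovery rate by day 4 in each genotype, at -0.65, -0.67 and -0.69. *Mcm4* lost its call without wt day 16 replicate 2, *Mcm7* without that array or wt day 0 replicate 2, and *Cdc6* without wt day 16 replicate 1 or wt day 0 replicate 2.

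The helicase is started by a smaller group, in which *Mcm10* and *Gins1* fell in wt and *Cdc45* and *Gins2* did not reach 2-fold. *Mcm10* read 9.45 and 9.64 in ESCs, 9.08 and 8.85 at day 4 and 7.76 and 7.43 at day 16 in wt. For *Mcm10* the *Dnmt1*-/- arrays read 9.62 and 9.74 in ESCs, 8.99 and 8.93 at day 4 and 8.44 and 8.44 at day 16, and the TKO arrays read 9.52 and 9.54 in ESCs, 9.01 and 9.0 at day 4 and 8.76 and 8.98 at day 16. At day 4 the genotypes ran together, and at day 16 all 3 were apart by more than their replicate gaps. The change was -1.95 ± 0.14 (adjusted p = 2e-06) in wt, -1.24 ± 0.14 (adjusted p = 0.00011) in *Dnmt1*-/- and -0.66 ± 0.14 (adjusted p = 0.019) in TKO. TKO exceeded wt at day 16 by 1.28 ± 0.14 (adjusted p = 7.9e-05), and the difference of the changes was 1.29 ± 0.20 (adjusted p = 0.0032). Neither call was lost when any array was left out.

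*Gins1*, a subunit of GINS, read 8.40 and 8.34 in ESCs, 8.39 and 7.73 at day 4 and 7.08 and 6.28 at day 16 in wt, with replicate 2 well below replicate 1 in EBs. For *Gins1* the *Dnmt1*-/- arrays read 8.68 and 8.45 in ESCs, 8.49 and 8.35 at day 4 and 7.81 and 7.36 at day 16, and the TKO arrays read 8.70 and 8.24 in ESCs, 8.40 and 8.13 at day 4 and 8.03 and 7.55 at day 16. At day 16 both mutants lay above both wt arrays. The wt change was -1.69 ± 0.29 (adjusted p = 0.001), and TKO exceeded wt at day 16 by 1.11 ± 0.29 (adjusted p = 0.024), a call lost without wt day 16 replicate 2 or TKO day 16 replicate 1. *Cdc45*, which joins GINS and Mcm in the active helicase, read 8.47 and 8.31 in ESCs, 8.87 and 8.58 at day 4 and 7.92 and 7.41 at day 16 in wt. In *Dnmt1*-/- it read 8.69 and 8.65 in ESCs, 8.63 and 8.65 at day 4 and 8.25 and 8.01 at day 16, and in TKO it read 8.47 and 8.59 in ESCs, 8.60 and 8.57 at day 4 and 8.54 and 8.40 at day 16. The TKO arrays of *Cdc45* stayed in a narrow range, whereas wt was highest at day 4 and lowest at day 16. The *Cdc45* change was -1.06 ± 0.17 (adjusted p = 0.0012) in wt from day 4 to day 16, a call lost without wt day 4 replicate 1 or wt day 16 replicate 2. Over the longer interval from day 0 to day 16 the wt change of *Cdc45* did not reach 2-fold, with means of 8.39 and 7.67. The TKO change over that longer interval was -0.06 ± 0.17 (adjusted p = 0.95). *Gins2* went the other way, with a TKO value against wt of -0.76 ± 0.16 (adjusted p = 0.016) at day 4, past the false discovery rate without reaching 2-fold, and of -0.31 ± 0.16 (adjusted p = 0.28) at day 16.

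Of the 3 genes of the clamp and of nucleotide supply only *Rrm2* fell in wt, and none was called between genotypes. *Rrm2*, the regulated subunit of ribonucleotide reductase, read 10.44 and 10.43 in ESCs, 10.29 and 10.27 at day 4 and 9.56 and 8.94 at day 16 in wt. For *Rrm2* the *Dnmt1*-/- arrays read 10.49 and 10.59 in ESCs, 10.33 and 10.27 at day 4 and 9.62 and 9.69 at day 16, and the TKO arrays read 10.31 and 10.18 in ESCs, 10.09 and 10.03 at day 4 and 9.64 and 9.42 at day 16. It fell in wt, with a change of -1.18 ± 0.17 (adjusted p = 0.00026), a call lost without wt day 16 replicate 2. The TKO change of *Rrm2*, -0.71 ± 0.17 (adjusted p = 0.03), passed the false discovery rate without reaching 2-fold, and the difference from wt was 0.47 ± 0.24 (adjusted p = 0.37). *Pcna*, the sliding clamp of the polymerases, read 11.27 and 11.40 in ESCs, 11.28 and 11.32 at day 4 and 10.71 and 10.32 at day 16 in wt. For *Pcna* the *Dnmt1*-/- arrays read 11.32 and 11.45 in ESCs, 11.30 and 11.51 at day 4 and 10.83 and 10.83 at day 16, and the TKO arrays read 11.26 and 11.14 in ESCs, 11.38 and 11.39 at day 4 and 10.79 and 10.67 at day 16. The *Pcna* signals of day 16 overlapped between wt and TKO, and the change was -0.82 ± 0.14 (adjusted p = 0.001) in wt and -0.47 ± 0.14 (adjusted p = 0.085) in TKO. *Rrm1*, the large reductase subunit, read 10.57 and 10.60 in ESCs, 10.82 and 10.86 at day 4 and 10.45 and 10.21 at day 16 in wt. For *Rrm1* the *Dnmt1*-/- arrays read 10.58 and 10.66 in ESCs, 10.65 and 10.88 at day 4 and 10.21 and 10.43 at day 16, and the TKO arrays read 10.47 and 10.52 in ESCs, 10.58 and 10.56 at day 4 and 10.18 and 10.10 at day 16. Its change was the smallest of the S phase genes in wt, at -0.25 ± 0.13 (adjusted p = 0.21).

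Of the E cyclins *Ccne1* alone fell over the whole course in wt. *Ccne1* read 10.97 and 10.81 in ESCs, 8.84 and 9.09 at day 4 and 8.55 and 8.09 at day 16 in wt. The *Dnmt1*-/- arrays read 10.91 and 11.01 in ESCs, 9.74 and 9.26 at day 4 and 9.14 and 8.92 at day 16. In TKO it read 10.54 and 10.52 in ESCs, 10.15 and 10.42 at day 4 and 9.69 and 9.84 at day 16. Most of the wt fall came by day 4, whereas the TKO arrays of day 4 stayed near those of ESCs and above all EB arrays of the other lines. The change from day 0 to day 4 was -1.92 ± 0.19 (adjusted p = 7.1e-05) in wt, -1.45 ± 0.19 (adjusted p = 0.00052) in *Dnmt1*-/- and -0.25 ± 0.19 (adjusted p = 0.58) in TKO. TKO exceeded wt by 1.32 ± 0.19 (adjusted p = 0.0015) at day 4 and by 1.44 ± 0.19 (adjusted p = 0.00031) at day 16. Over the whole course the wt change was -2.57 ± 0.19 (adjusted p = 2.4e-06), the *Dnmt1*-/- change -1.93 ± 0.19 (adjusted p = 5.1e-05) and the difference between TKO and wt 1.80 ± 0.27 (adjusted p = 0.0027). The TKO calls of *Ccne1* were kept when any array was left out.

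*Ccne2*, its paralog, read 7.25 and 6.73 in ESCs, 7.76 and 6.93 at day 4 and 6.49 and 5.79 at day 16 in wt. For *Ccne2* the *Dnmt1*-/- arrays read 7.12 and 6.59 in ESCs, 7.38 and 7.51 at day 4 and 6.97 and 6.88 at day 16, and the TKO arrays read 6.45 and 6.46 in ESCs, 7.02 and 6.48 at day 4 and 6.93 and 6.54 at day 16. Its wt replicates lay far apart on every day. In wt it changed by -1.21 ± 0.31 (adjusted p = 0.022) after day 4, a call lost without wt day 4 replicate 1 or wt day 16 replicate 2, and -0.85 ± 0.31 (adjusted p = 0.071) over the whole course.

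Of the 3 regulators *Mybl2* had the largest change of any of the 41 members from day 0 to day 16 in wt, and the largest difference at day 16 between either mutant and wt. Its wt arrays read 10.16 and 10.35 in ESCs, 8.36 and 8.22 at day 4 and 7.54 and 7.30 at day 16. The *Dnmt1*-/- arrays read 10.34 and 10.23 in ESCs, 8.48 and 8.44 at day 4 and 9.05 and 9.05 at day 16. The TKO arrays read 10.31 and 10.30 in ESCs, 9.06 and 9.95 at day 4 and 9.94 and 10.00 at day 16. At day 16 the genotypes were apart by far more than their replicates, and TKO EBs lay close to the ESC level, while the TKO arrays of day 4 were 0.89 apart. The change from day 0 to day 4 was -1.97 ± 0.22 (adjusted p = 0.00014) in wt, -1.83 ± 0.22 (adjusted p = 0.00029) in *Dnmt1*-/- and -0.80 ± 0.22 (adjusted p = 0.049) in TKO. After day 4 wt changed by a further -0.87 ± 0.22 (adjusted p = 0.018). *Dnmt1*-/- had instead 0.59 ± 0.22 (adjusted p = 0.17) and TKO 0.47 ± 0.22 (adjusted p = 0.34), neither past the false discovery rate.

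Against wt of day 16, *Mybl2* was higher by 1.63 ± 0.22 (adjusted p = 0.00065) in *Dnmt1*-/- and by 2.55 ± 0.22 (adjusted p = 7.4e-06) in TKO. TKO exceeded *Dnmt1*-/- by 0.92 ± 0.22 (adjusted p = 0.056), which did not pass. The change from day 0 to day 16 was -2.83 ± 0.22 (adjusted p = 2.7e-06) in wt, -1.24 ± 0.22 (adjusted p = 0.002) in *Dnmt1*-/- and -0.33 ± 0.22 (adjusted p = 0.54) in TKO. The difference from wt was 1.60 ± 0.31 (adjusted p = 0.027) for *Dnmt1*-/- and 2.50 ± 0.31 (adjusted p = 0.00062) for TKO, and that of TKO was kept when any array was left out.

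Neither of the other regulators was called in any comparison. *Foxm1*, which acts on genes of mitosis, read 7.79 and 7.49 in ESCs, 7.75 and 7.55 at day 4 and 7.12 and 6.87 at day 16 in wt. For *Foxm1* the *Dnmt1*-/- arrays read 7.33 and 7.23 in ESCs, 7.54 and 7.48 at day 4 and 7.11 and 6.98 at day 16, and the TKO arrays read 7.49 and 7.29 in ESCs, 7.86 and 7.77 at day 4 and 7.23 and 7.05 at day 16. Its change was -0.64 ± 0.15 (adjusted p = 0.0066) in wt and -0.25 ± 0.15 (adjusted p = 0.48) in TKO. *E2f1*, an activator at entry into S phase, read 7.51 and 7.52 in ESCs, 7.67 and 7.15 at day 4 and 7.21 and 6.76 at day 16 in wt. For *E2f1* the *Dnmt1*-/- arrays read 7.69 and 7.52 in ESCs, 7.30 and 7.26 at day 4 and 7.12 and 6.81 at day 16, and the TKO arrays read 7.61 and 7.70 in ESCs, 7.41 and 7.31 at day 4 and 7.34 and 7.46 at day 16. At day 16 its TKO arrays lay above those of the other lines by less than the gap between the wt arrays, and its wt change was -0.53 ± 0.19 (adjusted p = 0.062).

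**Figure D4:**
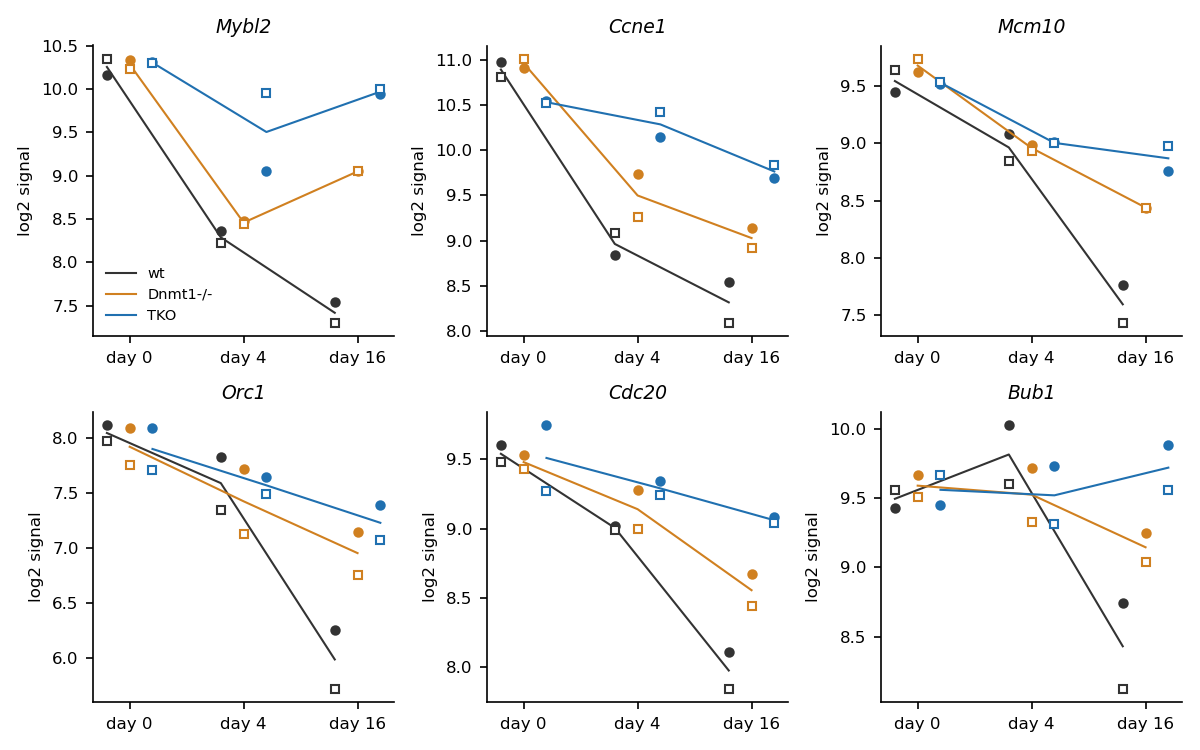
Log2 signals of *Mybl2*, *Ccne1*, *Mcm10*, *Orc1*, *Cdc20* and *Bub1* on each array, by day (evenly spaced, not to scale) and genotype. Filled circles are replicate 1, open squares replicate 2, lines join the means, and the vertical axes differ between panels. *Mybl2* and *Ccne1* part from the ESC level by day 4 in wt and *Dnmt1*-/-, with wt at 8.36 and 8.22 for *Mybl2*. At day 16 the wt arrays lie below those of both mutants in every panel, and the mutants overlap for *Orc1*.

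Among the mitotic cyclins and Cdk1, *Ccna2* alone fell in wt. *Ccna2*, cyclin A2, read 10.25 and 10.21 in ESCs, 10.29 and 9.90 at day 4 and 9.49 and 8.76 at day 16 in wt. For *Ccna2* the *Dnmt1*-/- arrays read 10.20 and 9.95 in ESCs, 10.08 and 9.87 at day 4 and 9.76 and 9.59 at day 16, and the TKO arrays read 10.12 and 9.97 in ESCs, 10.16 and 9.94 at day 4 and 10.01 and 9.69 at day 16. The wt change was -1.10 ± 0.22 (adjusted p = 0.003), lost without wt day 16 replicate 2, and TKO differed from wt at day 16 by 0.72 ± 0.22 (adjusted p = 0.053). *Ccnb2*, cyclin B2, read 10.21 and 10.11 in ESCs, 10.25 and 9.88 at day 4 and 9.56 and 9.06 at day 16 in wt. For *Ccnb2* the *Dnmt1*-/- arrays read 10.31 and 9.86 in ESCs, 10.26 and 10.01 at day 4 and 9.95 and 9.58 at day 16, and the TKO arrays read 10.22 and 10.09 in ESCs, 10.11 and 9.93 at day 4 and 10.45 and 10.04 at day 16. Its TKO arrays of day 16 spanned those of TKO ESCs, and they exceeded wt by 0.94 ± 0.23 (adjusted p = 0.014), past the false discovery rate without reaching 2-fold. *Cdk1*, the kinase these cyclins activate, read 9.63 and 9.42 in ESCs, 9.71 and 9.29 at day 4 and 9.20 and 8.52 at day 16 in wt. For *Cdk1* the *Dnmt1*-/- arrays read 9.63 and 9.23 in ESCs, 9.59 and 9.48 at day 4 and 9.36 and 8.96 at day 16, and the TKO arrays read 9.62 and 9.24 in ESCs, 9.52 and 9.24 at day 4 and 9.39 and 9.0 at day 16. Its wt replicates were 0.68 apart at day 16 and the change was -0.66 ± 0.26 (adjusted p = 0.086). The phosphatase *Cdc25c*, which activates Cdk1, changed by -0.49 ± 0.20 (adjusted p = 0.099) in wt.

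Of the mitotic kinases and their partner Birc5, *Plk1* and *Aurka* fell. *Plk1*, which acts at centrosomes and kinetochores, read 9.96 and 9.89 in ESCs, 9.49 and 9.38 at day 4 and 8.74 and 8.09 at day 16 in wt. For *Plk1* the *Dnmt1*-/- arrays read 9.90 and 9.43 in ESCs, 9.74 and 9.35 at day 4 and 9.28 and 9.01 at day 16, and the TKO arrays read 9.94 and 9.88 in ESCs, 9.79 and 9.48 at day 4 and 9.55 and 9.34 at day 16. The wt arrays of day 16 were lowest but also far from each other. *Plk1* changed in wt by -1.51 ± 0.23 (adjusted p = 0.00035), and TKO exceeded wt at day 16 by 1.03 ± 0.23 (adjusted p = 0.009), lost without wt day 16 replicate 2 or TKO day 16 replicate 1. *Aurka*, the spindle pole kinase, read 9.73 and 9.74 in ESCs, 9.55 and 9.48 at day 4 and 8.65 and 8.46 at day 16 in wt. For *Aurka* the *Dnmt1*-/- arrays read 9.85 and 9.77 in ESCs, 9.51 and 9.47 at day 4 and 9.27 and 9.28 at day 16, and the TKO arrays read 9.81 and 9.84 in ESCs, 9.55 and 9.46 at day 4 and 9.43 and 9.52 at day 16. The replicates of *Aurka* agreed closely and the genotypes of day 16 were apart. The *Aurka* change was -1.18 ± 0.11 (adjusted p = 1.2e-05) in wt, -0.54 ± 0.11 (adjusted p = 0.0055) in *Dnmt1*-/- and -0.35 ± 0.11 (adjusted p = 0.11) in TKO, and the difference between TKO and wt, 0.84 ± 0.16 (adjusted p = 0.0092), passed the false discovery rate without reaching 2-fold.

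*Birc5*, survivin of the chromosomal passenger complex, read 8.76 and 8.27 in ESCs, 8.71 and 8.06 at day 4 and 7.85 and 7.08 at day 16 in wt. For *Birc5* the *Dnmt1*-/- arrays read 8.70 and 8.02 in ESCs, 8.73 and 8.19 at day 4 and 8.19 and 7.57 at day 16, and the TKO arrays read 8.54 and 8.08 in ESCs, 8.38 and 7.83 at day 4 and 8.21 and 7.64 at day 16. Replicate 2 was lower in every group, and no comparison of *Birc5* passed. From day 0 to day 16 wt changed by -1.04 ± 0.38 (adjusted p = 0.065). *Aurkb*, the kinase of that complex, changed by -0.30 ± 0.14 (adjusted p = 0.14) in wt and by -0.02 ± 0.14 (adjusted p = 0.98) in TKO.

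The spindle checkpoint delays anaphase until every chromosome is attached, and Cdc20 then activates the ligase that ends mitosis. Of these 5 genes 4 fell in wt, and 3 were higher in TKO than in wt at day 16, against 2.69% of all genes. All 3 of these TKO calls were lost without wt day 16 replicate 2. *Cdc20* read 9.60 and 9.48 in ESCs, 9.02 and 8.99 at day 4 and 8.11 and 7.84 at day 16 in wt. For *Cdc20* the *Dnmt1*-/- arrays read 9.53 and 9.43 in ESCs, 9.28 and 9.0 at day 4 and 8.67 and 8.44 at day 16, and the TKO arrays read 9.75 and 9.27 in ESCs, 9.34 and 9.24 at day 4 and 9.08 and 9.04 at day 16. The 3 genotypes of day 16 did not overlap. The change was -1.56 ± 0.17 (adjusted p = 3.4e-05) in wt, -0.92 ± 0.17 (adjusted p = 0.0027) in *Dnmt1*-/- and -0.45 ± 0.17 (adjusted p = 0.18) in TKO. TKO exceeded wt at day 16 by 1.09 ± 0.17 (adjusted p = 0.001), a call lost without wt day 16 replicate 2. The difference of the changes was 1.11 ± 0.24 (adjusted p = 0.019), and this call was lost in 6 of 8 omissions of a single array.

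*Bub1*, a checkpoint kinase, read 9.43 and 9.56 in ESCs, 10.03 and 9.60 at day 4 and 8.74 and 8.12 at day 16 in wt. For *Bub1* the *Dnmt1*-/- arrays read 9.67 and 9.51 in ESCs, 9.72 and 9.33 at day 4 and 9.25 and 9.04 at day 16, and the TKO arrays read 9.45 and 9.67 in ESCs, 9.73 and 9.31 at day 4 and 9.88 and 9.56 at day 16. The TKO arrays of day 16 overlapped with those of TKO ESCs, while the wt arrays lay below all others. The wt change was -1.07 ± 0.24 (adjusted p = 0.0052) and TKO exceeded wt at day 16 by 1.29 ± 0.24 (adjusted p = 0.0028), and each call was lost without wt day 16 replicate 2. *Ttk*, the kinase at the head of the checkpoint, read 8.55 and 8.49 in ESCs, 8.72 and 8.26 at day 4 and 7.63 and 6.87 at day 16 in wt. For *Ttk* the *Dnmt1*-/- arrays read 8.77 and 8.35 in ESCs, 8.45 and 8.39 at day 4 and 8.15 and 7.86 at day 16, and the TKO arrays read 8.62 and 8.44 in ESCs, 8.59 and 8.39 at day 4 and 8.55 and 8.13 at day 16. Its wt arrays of day 16 lay below all others. *Ttk* changed in wt by -1.27 ± 0.25 (adjusted p = 0.0024), and TKO exceeded wt by 1.09 ± 0.25 (adjusted p = 0.011). Both of these calls were lost without wt day 16 replicate 2, and the latter also without TKO day 16 replicate 1.

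*Bub1b*, BubR1, read 10.04 and 10.32 in ESCs, 9.95 and 10.08 at day 4 and 9.05 and 8.99 at day 16 in wt. For *Bub1b* the *Dnmt1*-/- arrays read 10.14 and 10.16 in ESCs, 9.96 and 10.10 at day 4 and 9.53 and 9.61 at day 16, and the TKO arrays read 10.31 and 10.27 in ESCs, 10.05 and 10.13 at day 4 and 9.92 and 9.93 at day 16. Its change was -1.16 ± 0.12 (adjusted p = 2.6e-05) in wt and -0.36 ± 0.12 (adjusted p = 0.13) in TKO, and the difference, 0.80 ± 0.17 (adjusted p = 0.019), passed the false discovery rate without reaching 2-fold. *Mad2l1*, Mad2, changed by -0.92 ± 0.16 (adjusted p = 0.00084) in wt.

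Motor and kinetochore proteins move and attach the chromosomes, and 3 of these 5 genes fell in wt. *Kif20a*, a kinesin of cytokinesis, read 9.62 and 9.59 in ESCs, 9.45 and 9.47 at day 4 and 8.51 and 8.22 at day 16 in wt. For *Kif20a* the *Dnmt1*-/- arrays read 9.60 and 9.49 in ESCs, 9.37 and 9.53 at day 4 and 9.06 and 8.89 at day 16, and the TKO arrays read 9.49 and 9.49 in ESCs, 9.52 and 9.52 at day 4 and 9.37 and 9.14 at day 16. The wt arrays of day 16 lay below both mutants. The change was -1.24 ± 0.14 (adjusted p = 3.4e-05) in wt, -0.57 ± 0.14 (adjusted p = 0.012) in *Dnmt1*-/- and -0.24 ± 0.14 (adjusted p = 0.44) in TKO. TKO and wt changes differed by 1.00 ± 0.19 (adjusted p = 0.0096), at the 2-fold line and lost in 4 of 8 omissions of a single array. *Kif2c*, which takes microtubules apart, read 9.85 and 9.97 in ESCs, 9.65 and 9.65 at day 4 and 8.86 and 8.46 at day 16 in wt. For *Kif2c* the *Dnmt1*-/- arrays read 9.97 and 9.89 in ESCs, 9.59 and 9.49 at day 4 and 9.11 and 9.09 at day 16, and the TKO arrays read 10.05 and 9.94 in ESCs, 9.70 and 9.66 at day 4 and 9.64 and 9.63 at day 16. It fell in wt, with a change of -1.25 ± 0.13 (adjusted p = 2.9e-05), and TKO exceeded wt at day 16 by 0.98 ± 0.13 (adjusted p = 0.00036), just short of the 2-fold line. *Kif11*, the motor that pushes spindle poles apart, read 9.20 and 9.35 in ESCs, 9.24 and 9.14 at day 4 and 8.41 and 7.86 at day 16 in wt. For *Kif11* the *Dnmt1*-/- arrays read 9.52 and 9.38 in ESCs, 9.11 and 9.16 at day 4 and 8.65 and 8.69 at day 16, and the TKO arrays read 9.71 and 9.62 in ESCs, 9.37 and 9.24 at day 4 and 9.06 and 8.83 at day 16. Its wt change was -1.14 ± 0.17 (adjusted p = 0.00028), lost without wt day 16 replicate 2, and the TKO change -0.72 ± 0.17 (adjusted p = 0.025). *Cenpe* and *Cenpf*, proteins of the kinetochore, changed by -0.93 ± 0.19 (adjusted p = 0.0031) and -0.89 ± 0.20 (adjusted p = 0.0055) in wt.

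Neither chromosome protein fell 2-fold. *Top2a*, which untangles copied DNA, read 10.60 and 10.70 in ESCs, 10.70 and 10.36 at day 4 and 10.17 and 9.74 at day 16 in wt. For *Top2a* the *Dnmt1*-/- arrays read 10.71 and 10.47 in ESCs, 10.54 and 10.52 at day 4 and 10.36 and 10.42 at day 16, and the TKO arrays read 10.46 and 10.58 in ESCs, 10.35 and 10.07 at day 4 and 10.60 and 10.42 at day 16. Its wt change was -0.69 ± 0.17 (adjusted p = 0.011). *Mki67*, which encodes the Ki-67 antigen used to stain dividing cells, read 9.30 and 9.25 in ESCs, 9.57 and 9.60 at day 4 and 9.10 and 8.87 at day 16 in wt. For *Mki67* the *Dnmt1*-/- arrays read 9.10 and 8.89 in ESCs, 9.29 and 9.39 at day 4 and 9.08 and 9.20 at day 16, and the TKO arrays read 9.17 and 9.13 in ESCs, 9.41 and 9.29 at day 4 and 9.38 and 9.20 at day 16. Its signals were highest at day 4 in wt and stayed in a narrow range, and the wt change from day 0 to day 16 was -0.29 ± 0.13 (adjusted p = 0.14). No comparison of *Mki67* or *Top2a* reached 2-fold.

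Other genes of replication and mitosis also fell in wt. They were taken from textbook lists with earlier results of these data known and read on the same arrays, so they are no independent support. Of 42 further replication genes 18 fell in wt between day 0 and day 16 and none rose, with a median of -0.95, against 5.67% of all genes called lower. The count was 14 without wt day 16 replicate 2 and 23 without replicate 1. The largest falls were those of *Dbf4*, which activates the kinase of origin firing, at -1.67 ± 0.26 (adjusted p = 0.00049), *Orc2* at -1.61 ± 0.14 (adjusted p = 5.5e-06), *Pole*, a replicative polymerase, at -1.54 ± 0.16 (adjusted p = 2.5e-05), and *Tipin* at -1.53 ± 0.18 (adjusted p = 6.6e-05). Of 46 further mitotic genes 23 fell, with a median of -0.99, against the same share of all genes, and the count was 14 without wt day 16 replicate 2 and 28 without replicate 1. They were led by separase (*Espl1*) at -1.69 ± 0.16 (adjusted p = 1.3e-05), *Trip13* at -1.68 ± 0.16 (adjusted p = 1.1e-05) and *Kif18a* at -1.56 ± 0.29 (adjusted p = 0.0018). In TKO against wt at day 16, 4 of the 42 and 9 of the 46 were higher and none lower, against 2.69% of all genes called higher. These counts were 1 and 1 without wt day 16 replicate 2, and 8 and 18 without wt day 16 replicate 1. *Sgo2a*, which protects cohesin, had the largest difference, 1.43 ± 0.15 (adjusted p = 3.5e-05), and kept its call when each array was left out in turn.

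The inhibitors of cyclin-dependent kinases (CDKs) hold cells in G1. All 6 measured CDK inhibitor genes had changes above 0 in wt, and 3 of them rose, against 8.65% of all genes called higher. Without wt day 16 replicate 1 only 1 was called. *Cdkn1c*, which encodes p57 and is imprinted, read 8.17 and 8.31 in ESCs, 8.35 and 9.04 at day 4 and 9.79 and 10.83 at day 16 in wt. For *Cdkn1c* the *Dnmt1*-/- arrays read 8.02 and 8.19 in ESCs, 7.57 and 7.74 at day 4 and 10.70 and 10.20 at day 16, and the TKO arrays read 8.21 and 8.12 in ESCs, 7.39 and 7.11 at day 4 and 9.09 and 9.30 at day 16. Over the whole course it was called higher in wt and *Dnmt1*-/- only, and the TKO arrays of day 16 lay below those of both other lines. From day 4 to day 16 it rose in all 3 lines. That rise was 1.62 ± 0.30 (adjusted p = 0.0033) in wt, 2.80 ± 0.30 (adjusted p = 0.00018) in *Dnmt1*-/- and 1.94 ± 0.30 (adjusted p = 0.0064) in TKO. At day 4 TKO was already lower than wt, with a difference of -1.44 ± 0.30 (adjusted p = 0.014). The change from day 0 to day 16 was 2.07 ± 0.30 (adjusted p = 0.0003) in wt, 2.35 ± 0.30 (adjusted p = 0.00024) in *Dnmt1*-/- and 1.03 ± 0.30 (adjusted p = 0.075) in TKO. The difference of the TKO and wt changes was -1.03 ± 0.43 (adjusted p = 0.24), which did not pass. TKO was lower than wt at day 16, with a difference of -1.11 ± 0.30 (adjusted p = 0.029), a call kept only when wt day 16 replicate 1 was the array left out.

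*Cdkn1b*, p27, rose in wt by 1.13 ± 0.23 (adjusted p = 0.0031), a call lost without wt day 16 replicate 1, against 0.18 ± 0.23 (adjusted p = 0.84) in TKO. The difference of these changes was -0.95 ± 0.33 (adjusted p = 0.14), which did not pass. *Cdkn2c*, p18, was among the dim probe sets, at 3.95 and 4.17 in wt ESCs and 5.19 and 4.97 in day 16 EBs. It rose by 1.02 ± 0.16 (adjusted p = 0.0005) in wt, lost without wt day 0 replicate 1 or wt day 16 replicate 1. The wt values of *Cdkn2a*, *Cdkn2b* and *Cdkn2d* were 0.17 ± 0.21 (adjusted p = 0.64), 0.59 ± 0.23 (adjusted p = 0.086) and 0.41 ± 0.25 (adjusted p = 0.28). At day 4 *Cdkn2a* was called higher in TKO than in wt, by 1.09 ± 0.21 (adjusted p = 0.0086). *Cdkn1a* (p21) has a probe set only together with another symbol and is not given.

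*Ccnd2*, cyclin D2, showed the largest genotype difference of these lists. Its wt arrays read 8.84 and 8.82 in ESCs, 9.50 and 9.99 at day 4 and 11.32 and 10.86 at day 16. The *Dnmt1*-/- arrays read 8.90 and 9.13 in ESCs, 9.80 and 10.01 at day 4 and 9.92 and 10.20 at day 16 and the TKO arrays 8.75 and 8.74 in ESCs, 9.03 and 8.56 at day 4 and 8.79 and 8.18 at day 16. The wt signals were higher on each later day, those of *Dnmt1*-/- were alike at day 4 and day 16, and the TKO arrays of every day lay around the ESC level. The change was 2.26 ± 0.24 (adjusted p = 3.1e-05) in wt, 1.05 ± 0.24 (adjusted p = 0.011) in *Dnmt1*-/- and -0.26 ± 0.24 (adjusted p = 0.73) in TKO. At day 16 *Dnmt1*-/- was lower than wt, with a difference of -1.02 ± 0.24 (adjusted p = 0.028), the call of 1 of 7 G1 cyclins and kinases against 2.15% of all genes called lower. It was kept only when wt day 16 replicate 2 was the array left out. TKO was lower than wt, with a difference of -2.60 ± 0.24 (adjusted p = 1.7e-05), and lower than *Dnmt1*-/-, with a difference of -1.58 ± 0.24 (adjusted p = 0.0073). The call against wt held when each array was left out in turn, and that against *Dnmt1*-/- was lost without replicate 2 of either mutant at day 16. The difference of the TKO and wt changes was -2.52 ± 0.35 (adjusted p = 0.0013) and was kept when any array was left out.

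*Ccnd1*, *Cdk6* and the G1 phosphatase *Cdc25a* fell in wt, with changes of -1.26 ± 0.19 (adjusted p = 0.00044), -1.08 ± 0.17 (adjusted p = 0.00043) and -1.14 ± 0.12 (adjusted p = 2.2e-05). The first of these calls and that of *Cdk6* were lost without wt day 16 replicate 2. Of 18 pocket proteins, E2F partners and Myc genes, 4 fell and 1 rose in wt, against 5.67% and 8.65% of all genes. *Mycn* changed by -2.51 ± 0.17 (adjusted p = 1.1e-06) in wt, -1.72 ± 0.17 (adjusted p = 4.1e-05) in *Dnmt1*-/- and -1.21 ± 0.17 (adjusted p = 0.0014) in TKO, and TKO and wt differed in this by 1.29 ± 0.24 (adjusted p = 0.0075). *Myc* also fell in wt, with a change of -1.13, a call lost without wt day 0 replicate 1 or wt day 16 replicate 2. *E2f4*, a repressor E2F, fell, with a change of -1.35 ± 0.13 (adjusted p = 1.4e-05). The pocket protein gene *Rbl2* (p130) rose by 1.06 ± 0.20 (adjusted p = 0.002), a call lost without wt day 0 replicate 1 or wt day 16 replicate 1.

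**Figure D5:**
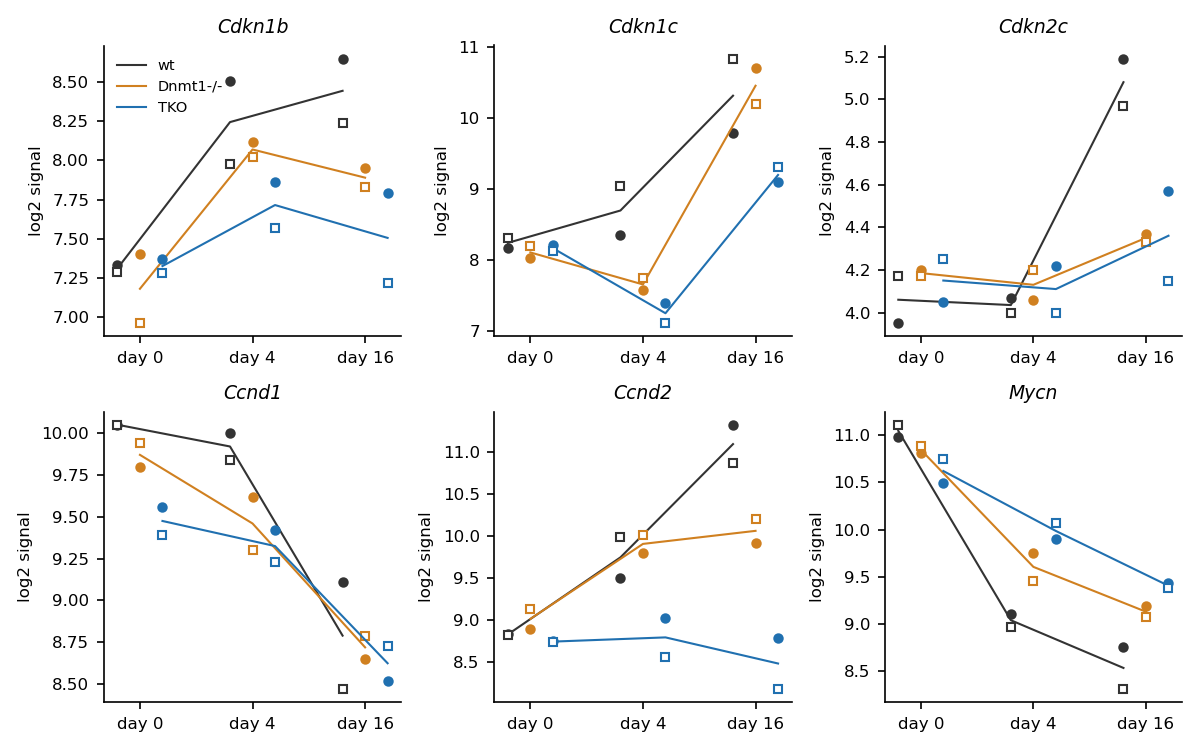
Log2 signals of the CDK inhibitor genes *Cdkn1b*, *Cdkn1c* and *Cdkn2c*, of *Ccnd1* and *Ccnd2*, and of *Mycn* on each array, by day (evenly spaced, not to scale) and genotype. Filled circles are replicate 1, open squares replicate 2, lines join the means, and the vertical axes differ between panels. *Ccnd2* climbs to 11.32 and 10.86 in wt EBs of day 16 and stays at 8.79 and 8.18 in TKO, while *Mycn* falls in all 3 lines.

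Markers of cell types differed between the same groups as the members. In TKO EBs of day 16, 7 of 8 ESC markers were higher than in wt and their mean was 10.01 and 10.04, against 7.49 and 7.11 in wt and 9.04 and 8.85 in *Dnmt1*-/-. Of all genes 2.69% were called higher and 5.07% lower in this comparison. All 6 mesenchymal markers were lower in TKO, with means of 6.32 and 5.63 against 11.12 and 11.48 in wt and 9.32 and 8.69 in *Dnmt1*-/-. All 5 cardiac markers, 4 of 8 endoderm and liver markers and 3 of 4 macrophage markers were lower in TKO too, with a median difference of -2.59, -1.44 and -1.83. None of the 4 erythroid markers was called in limma, with 0 at an unadjusted p under 0.05, and 1 of 4 neuronal markers was higher. The part of cell type in the values of the members was not tested.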

How the data were processed

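RNA of 18 cultures was hybridised to GeneChip Mouse Gene 1.0 ST arrays, 2 for each of 9 groups of genotype and day, which GEO's labels number as replicates 1 and 2. The deposited table holds log2 signals that the authors made with RMA (background correction, quantile normalization and summary of each probe set); the submitters' processing notes name RMA, with a version not given in the sources used here. RMA sets every array to 1 distribution, so a shift shared by most transcripts would not be seen. The table has 0 columns of other samples and 0 missing values, with array medians of 5.77 to 5.9. The study states that its array samples came from 2 independent experiments, but the labels do not say whether equal replicate numbers share one. The p-values measure only the spread between these samples. Of the probe sets, 21789 carried 1 gene symbol in the platform annotation, 1621 several and 12102 none, and none was named from several. A gene was given by its probe set with the highest mean signal over all arrays, which mattered for 2 members. With no depth in array data, the number of arrays limits precision: the median SE was 0.203 for a fold change and 0.287 for a difference of changes.

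Means of the 9 groups were fitted over all 18 arrays in limma (version 3.58.1, R 4.3.3), with plain eBayes (neither trend nor robust variance). There were 9 residual degrees of freedom and 3.32 from the prior, with Benjamini-Hochberg adjustment within each comparison over 35512 probe sets. The fit was also run on simulated arrays with known changes added, and the result of that run is not given here. Its noise was drawn independently for each array, so it did not cover deviations shared between arrays. Changes between days within a genotype, mutants against wt on each day, and the differences of the changes were compared. Values in every array were given for up to 3 members of each role with the largest wt change and for members called between genotypes, and the rest by range, count or fold change. The members, the textbook lists and the markers were chosen with earlier results of these data known. The comparison of TKO with *Dnmt1*-/- and the omission of single arrays for the further lists were chosen after the values were seen. Alternatives were subtraction of array medians, a further quantile normalization, centring of fold changes, a fit restricted to the groups compared, a filter on the dimmest 30% of probe sets, the replicate number as a block, eBayes with trend and robust variance, the false discovery rate alone, the mean over probe sets, and omission of each array in turn. Promoter windows came from RefSeq. Python 3.11.15 was used for tables and motifs.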

Additional observations from a re-analysis of the deposited data

Results flagged for a closer look

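For 6 results the change from day 0 to day 16 differed between a mutant and wt by a direct test in limma, each time with the smaller change in the mutant. *Mybl2*, the gene of B-Myb, differed by 1.60 (log2, adjusted p = 0.027) between *Dnmt1*-/- and wt and by 2.50 (adjusted p = 0.00062) between TKO and wt. *Ccne1* (cyclin E1) differed by 1.80 (adjusted p = 0.0027) and *Mcm10*, which acts at the replication fork, by 1.29 (adjusted p = 0.0032) between TKO and wt. *Cdc20*, the activator of the anaphase ligase, differed by 1.11 (adjusted p = 0.019) and the kinesin gene *Kif20a* by 1.00 (adjusted p = 0.0096) between the same lines. Both mutants were set against the same wt arrays, so the *Mybl2* values are not independent of each other. The differences of *Mybl2*, *Ccne1* and *Mcm10* between TKO and wt kept their calls when each array was left out. That of *Mybl2* between *Dnmt1*-/- and wt lost its call in 7 of 8 omissions, that of *Cdc20* in 6 and that of *Kif20a* in 4.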

How the results depend on the processing

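No call of a member reversed its direction under any alternative run. Of 66 calls of members, all 66 held after subtraction of array medians, without dim probe sets, with the replicate block, with eBayes with trend and robust variance and with the mean over probe sets. A further quantile normalization kept 54, centring 52 and fits of only the arrays compared 45, and omission of single arrays kept 231 of 288. The calls lost under quantile normalization and centring had fold changes near the 2-fold line, and fits of fewer arrays have fewer degrees of freedom.

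The count of wt from day 4 to day 16 (17 members) was 10 after quantile normalization, 9 after centring and 5 with only the arrays compared. With only the arrays compared, TKO against wt gave 1 member at day 4 and 4 at day 16, and the TKO difference of changes gave 3. Without the fold line, from day 0 to day 4, 6 members passed in wt, 6 in *Dnmt1*-/- and 3 in TKO, from day 4 to day 16 the counts were 37, 4 and 2, and from day 0 to day 16 they were 23 in *Dnmt1*-/- and 7 in TKO. Against wt at day 16 they were 7 in *Dnmt1*-/- and 24 in TKO, and the TKO difference of changes gave 10. Shares of all genes at the false discovery rate alone are given above only for day 0 to day 16 and for day 16 against wt. The other counts without the fold line have no such share beside them.

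With each array left out in turn, counts ranged from 6 to 28 in wt from day 4 to day 16, from 16 to 30 in wt from day 0 to day 16, and from 0 to 1 in TKO from day 0 to day 4. They ranged from 1 to 2 for TKO against wt at day 4, 1 to 7 for *Dnmt1*-/- and 3 to 18 for TKO against wt at day 16, 0 to 1 for the *Dnmt1*-/- and 3 to 12 for the TKO difference of changes. The extremes of most came without an array of day 16 wt EBs. Pairing was not given by the labels, and the correlation of deviations of arrays with the same number was 0.04 to 0.50 over 36 pairs of groups, over 0.1 in 32 but not in the others, so the numbers were not taken as pairs. With the replicate number as a block the counts were 2 for the *Dnmt1*-/- and 11 for the TKO difference of changes, and other counts stayed within 1.5 times. The cause of these shifts was not tested.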
